A study of Homo sapiens with 10 samples.

Results

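BEAS2B cells, an established line of human bronchial epithelial cells, were transfected with a miR-3124-5p mimic or with a miR-200b-3p mimic, and the transcriptomes of both groups were compared directly. The comparison used 4 of the 10 libraries of the series, 2 of miR3124_mimic and 2 of miR200b_mimic, chosen by their labels. The 6 other libraries were a scrambled miRNA control (miRcontrol), a miR92b_inhibitor group and a 3-miRNA mixed group, with 2 libraries each, and they entered the fit so that all groups shared an estimate of the spread. Per the methods of the study, each mimic, inhibitor or control was transfected with a Lipofectamine reagent at a final concentration of 50 nM and RNA was taken after 48 h. The dose of each component in the mixture was not given in the sources used here. All libraries came from 1 cell line, and nothing in the labels says that same-group libraries were separate transfections, so the p-values measure the spread between these libraries, which may be technical. Mature miRNA levels were not analysed here.

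A miRNA is a short RNA that guides an Argonaute protein to mRNAs, mainly through pairing of its seed, the bases near its 5′ end, with sites in the 3′ untranslated region (3′UTR), after which the mRNA is destabilised or less translated. The miR-200 family is known for holding epithelial cells in their epithelial state by silencing ZEB1 and ZEB2, transcription factors that repress E-cadherin and other junction genes during epithelial-mesenchymal transition. Much less is known about miR-3124-5p. A mimic is a synthetic double-stranded RNA that loads the mature strand into Argonaute at levels a cell may not normally reach.

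The mature sequences are shown because their seeds set the sites searched for below. Both were taken from RefSeq (GRCh38.p14), are written 5′ to 3′, and have the seed (bases 2 to 8) in capitals.
hsa-miR-3124-5p: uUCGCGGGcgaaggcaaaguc
hsa-miR-200b-3p: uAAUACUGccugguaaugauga
The miR-3124-5p sequence lies at chr1:248826383-248826403 and the miR-200b-3p sequence at chr1:1167160-1167181, both on the plus strand. The miR-3124-5p seed is 85.7% G and C, whereas the miR-200b-3p seed is 28.6% G and C. The miR-200b-3p seed is shared by 2 other mature miRNAs in the RefSeq set, hsa-miR-200c-3p and hsa-miR-429, and the miR-3124-5p seed by none.

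The 4 mimic libraries held 14518832 and 17414891 counts (miR3124_mimic) and 13587666 and 17585455 counts (miR200b_mimic), and the 10 libraries ranged from 13587666 to 18503890 counts. Levels are given below as CPM, the count of a gene scaled to a common library size, always in the order of the replicate numbers, and fold changes as log2 differences, miR3124_mimic minus miR200b_mimic, with the standard error (SE). CPM is not scaled by gene length, so levels are compared between libraries and not between genes. The label of an epithelial line was checked against 10 epithelial markers, whose summed level was 2782 to 2791 CPM in miR3124_mimic and 4198 to 4278 CPM in miR200b_mimic, mostly from the keratins KRT7, KRT8 and KRT18. KRT14 and TP63, markers of basal cells, had at most 3 counts in every library, and so did all 6 secretory cell markers. CDH1 and EPCAM did not exceed 0.458 CPM in miRcontrol and miR3124_mimic, and KRT5 did not exceed 0.484 CPM in any library. The epithelial markers therefore bear out the label only in part. Of the other cell types checked, 7 fibroblast markers summed to 53.4 to 53.8 CPM in miR3124_mimic, 40.0 to 40.1 CPM in miR200b_mimic and 18.8 to 20.7 CPM in miRcontrol. Most of this came from COL1A1 and PDGFRB. COL1A1 was at 22.7 and 24.9 CPM in miR3124_mimic and 36.8 and 36.8 CPM in miR200b_mimic. PDGFRB went the other way, at 30.9 and 28.0 CPM against 3.14 and 2.93 CPM. The fibroblast genes DCN and LUM were at 3 counts or fewer everywhere. In whole-culture RNA, fewer cells of a type and less RNA per cell cannot be told apart.

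Across the transcriptome, 1806 of 14884 genes tested (12.1%) differed between the mimics by at least 2-fold at an adjusted p under 0.05 (Benjamini-Hochberg adjustment of the edgeR quasi-likelihood test), and are referred to as called. Of these, 1137 genes (7.64% of those tested) were higher in miR3124_mimic and 669 (4.49%) were higher in miR200b_mimic. The genes higher in miR3124_mimic had low levels, with a median of 2.42 CPM over the 4 libraries, against a median of 10.2 CPM for the genes higher in miR200b_mimic. The median size of the log2 difference was 1.55 and 1.40 in the respective directions. A difference of at least 4-fold was found for 328 and 149 called genes, and of at least 8-fold for 92 and 50. The libraries of the mimics did not overlap for 1797 of the called genes, and for 76.4% of all genes tested, so a lack of overlap alone was common here. At any fold, 8597 genes (57.8%) passed the adjusted p. Without 1 mimic library, 1711 to 1798 genes were called.

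**Figure D1:**
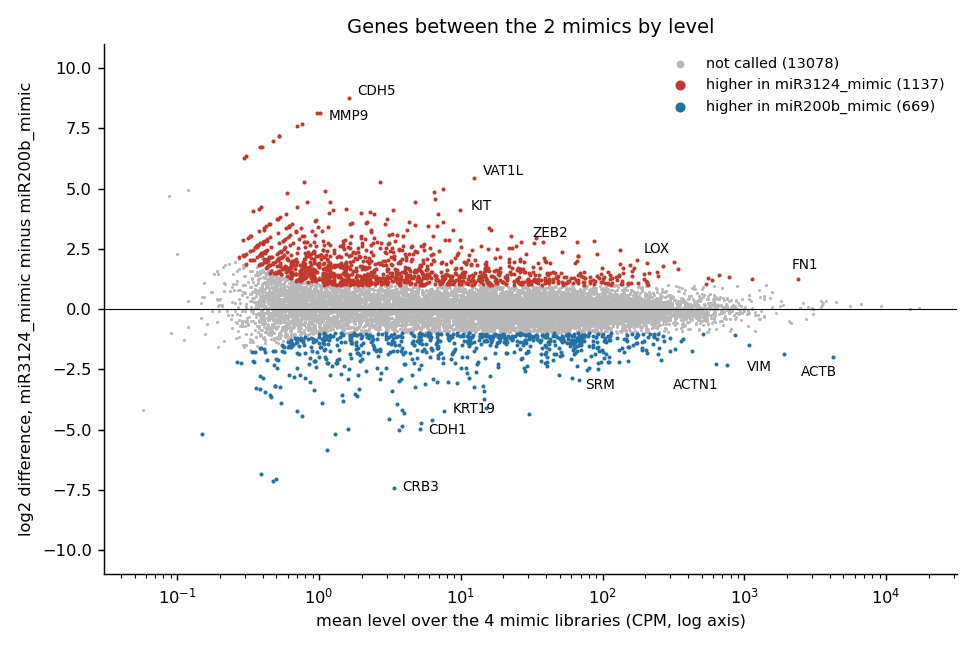
Each point is 1 gene tested, with its mean level over the 4 mimic libraries (CPM, log scale) on the x axis and its log2 difference, miR3124_mimic minus miR200b_mimic, on the y axis; called genes are coloured by direction and some named genes are marked. The 1137 genes called higher in miR3124_mimic lie mostly at low levels (median 2.42 CPM), and fitted differences at the lowest levels depend on the prior count.

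The called genes were next set against the scrambled control. Against miRcontrol, 713 of the 1806 called genes departed by at least 2-fold at an adjusted p under 0.05 in miR3124_mimic alone and 360 in miR200b_mimic alone. Another 87 departed with both mimics, and 646 departed by that much with neither. Both of these comparisons share the miRcontrol libraries, so their values are given side by side.

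The genes with the greatest excess in miR3124_mimic had few or no counts in miR200b_mimic. CDH5, the cadherin of endothelial junctions (chr16:66366622-66404786, GRCh38), was at 4.03 and 2.49 CPM in miR3124_mimic and at 0 in both miR200b_mimic libraries, at least 14.5-fold higher against a floor of 3 counts in the smaller library. MMP9, a secreted gelatinase, was at 1.77 and 2.32 CPM in miR3124_mimic and also at 0 in both miR200b_mimic libraries, at least 9.13-fold higher by the same floor. In miRcontrol these genes had at most 0.0596 CPM. Neither gene had overlapping groups, and the adjusted p of the difference was 5.75e-11 for CDH5 and 2.73e-09 for MMP9. In miR3124_mimic, CDH5 carried most of the summed level of 5 endothelial markers, which was 3.34 to 4.91 CPM there and 0.224 to 0.862 CPM in miR200b_mimic, and EMCN, another of them, was at 3 counts or fewer in every library.

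VAT1L, a relative of the synaptic vesicle protein VAT1, showed the largest fitted difference among genes counted above the floor in both groups. Its level was 23.3 and 25.2 CPM in miR3124_mimic, 0.374 and 0.690 CPM in miR200b_mimic and 2.63 and 2.98 CPM in miRcontrol. The miR3124_mimic libraries were therefore far above the control and the miR200b_mimic libraries below it, with a log2 difference of 5.44 (SE 0.22, adjusted p = 3.20e-26). FAM131B had the same order of groups, with 14.9 and 14.4 CPM in miR3124_mimic, 0.523 and 0.402 CPM in miR200b_mimic and 1.60 and 2.15 CPM in miRcontrol, and a log2 difference of 4.98 (SE 0.26). SYT11, a synaptotagmin of membrane traffic, was at 12.7 and 12.6 CPM against 0.523 and 0.517 CPM, a log2 difference of 4.58 (SE 0.27).

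KIF5C, a kinesin-1 heavy chain of neurons, was at 5.12 and 5.48 CPM in miR3124_mimic against 0.0747 and 0.172 CPM in miR200b_mimic. With so few counts in the latter group, the ratio of summed counts was 40.9 with an exact 95% interval of 15.7 to 151.9, which covers counting error only, as do all such intervals. BGN, the matrix proteoglycan biglycan, gave a ratio of 33.3 (8.88 to 280.4) in the same direction, from 1.91 and 2.37 CPM against 0 and 0.115 CPM. The fitted log2 differences of both genes moved with single libraries, to 6.01 for KIF5C without miR200b_mimic replicate 2, and to 4.14 or 8.19 for BGN without miR200b_mimic replicate 1 or 2. CD14, the lipopolysaccharide co-receptor of monocytes, was at 12.7 and 12.4 CPM in miR3124_mimic and 0.374 and 0.460 CPM in miR200b_mimic, a log2 difference of 4.87 (SE 0.28). Of the 7 blood cell markers, CD14 gave almost all of the signal, while PTPRC, CD3E, HBB and HBA1 were at 3 counts or fewer in every library.

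The 8 genes with the greatest excess in miR200b_mimic, among called genes of at least 1 CPM without overlap, included CDH1, EPCAM and CRB3. CDH1, which encodes E-cadherin (chr16:68737225-68835548), was at 10.9 and 9.02 CPM in miR200b_mimic, at 0.205 and 0.396 CPM in miR3124_mimic and at 0.172 and 0.119 CPM in miRcontrol. Only the miR200b_mimic libraries stood apart, and the log2 difference was -4.97 (SE 0.33, adjusted p = 8.465e-18). EPCAM, an epithelial adhesion molecule, was at 10.2 and 10.1 CPM in miR200b_mimic, against 0.409 and 0.339 CPM in miR3124_mimic and 0.458 and 0.119 CPM in miRcontrol, giving a log2 difference of -4.75 (SE 0.30). CRB3, the apical Crumbs protein, was at 7.02 and 6.32 CPM in miR200b_mimic and at 0.0682 and 0 CPM in miR3124_mimic. Its summed counts were 214.4-fold higher (exact 95% interval 38.04 to 8508) in miR200b_mimic, and its fitted log2 difference of -7.44 became -9.84 or -6.47 without miR3124_mimic replicate 1 or 2.

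The others of these 8 included ITGB6, KDF1, CST6 and CDS1, whose direction follows from how they were picked. ITGB6, the integrin chain of epithelial alpha v beta 6, was at 2.47 and 2.01 CPM in miR200b_mimic against 0 and 0.0565 CPM in miR3124_mimic, a count ratio of 71.5 (12.4 to 2863). KDF1, a regulator of keratinocyte differentiation, was at 2.69 and 2.41 CPM against 0.0682 and 0.0565 CPM, a ratio of 41.0 (10.97 to 344.4). CST6, a secreted cysteine protease inhibitor, was at 3.51 and 2.76 CPM against 0 and 0.170 CPM, a ratio of 33.3 (11.1 to 164.2). The fitted log2 difference became -5.13 or -8.24 for ITGB6 and -4.15 or -8.72 for CST6 without miR3124_mimic replicate 1 or 2, so only the ratios are read here. CDS1, an enzyme of phosphatidylinositol synthesis, was at 8.14 and 6.67 CPM against 0.137 and 0.339 CPM, with a log2 difference of -4.86 (SE 0.37), or -5.68 without miR3124_mimic replicate 2.

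The epithelial junction and polarity list held 39 genes, of which 32 passed the low-count filter. Of these 32, 20 were called higher in miR200b_mimic and none higher in miR3124_mimic. The share called was 62.5%, beside 12.1% of all genes tested. The median log2 difference was -1.49, beside -0.0002 over all genes tested. Like the lists below, this list was drawn up with earlier results of these data known, so its values describe rather than test the mimics. It includes CDH1, EPCAM, CRB3 and CDS1, which were picked above for the size of their differences. PATJ, a scaffold of the Crumbs complex, was at 12.2 and 13.4 CPM in miR3124_mimic and 87.2 and 83.8 CPM in miR200b_mimic, a log2 difference of -2.73 (SE 0.08). F11R, the junctional adhesion molecule JAM-A, was at 64.5 and 63.9 CPM against 217.8 and 218.5 CPM. DSP, the desmosomal linker desmoplakin, was at 123.7 and 121.5 CPM against 331.6 and 329.6 CPM. These groups did not overlap, and the log2 differences were -1.76 (SE 0.05) for F11R and -1.43 (SE 0.04) for DSP. The membrane protease ST14 and its inhibitors SPINT1 and SPINT2 were called in the same direction, with log2 differences of -4.17, -3.24 and -2.54. MAP7, a microtubule-binding protein of epithelia, had a log2 difference of -4.59. CLDN3, CLDN4 and CLDN7, claudins of tight junctions, did not pass, with log2 differences of 0.53, -1.01 and 0.12, and neither did occludin (OCLN) at -0.20 nor TJP1 at -0.12. CGN, which encodes cingulin, was at the other side of 0 with a log2 difference of 0.54 and an adjusted p of 4.08e-05, but did not reach 2-fold. Against miRcontrol, the median of the 32 genes was 1.48 in miR200b_mimic and 0.09 in miR3124_mimic.

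Of 13 epithelial regulators, 6 were tested and 3 (50%) were called, all higher in miR200b_mimic, beside 12.1% of all genes tested. The median log2 difference of the 6 was -0.99. ELF3 and KLF4, transcription factors of epithelial cells, were at low levels, with log2 differences of -1.80 and -1.09. KLF4 lost the call without miR3124_mimic replicate 2 (-0.69), and ELF3 lost it without miR3124_mimic replicate 1 (-1.93) or 2 (-1.67) or miR200b_mimic replicate 1 (-1.68). ELF3 was also not called by the DESeq2 Wald test. Among 18 keratins, 8 were tested and 3 (37.5%) were called, beside the same 12.1% of all genes. KRT19, a keratin of simple epithelia, was at 0.614 and 0.904 CPM in miR3124_mimic, 13.8 and 15.1 CPM in miR200b_mimic and 8.46 and 7.93 CPM in miRcontrol. It therefore lay below the control with one mimic and above it with the other, with a log2 difference of -4.21 (SE 0.22). KRT15, a basal cell keratin, was called in the same direction (-1.65), but the value was -2.29 without miR3124_mimic replicate 1 and the call was lost without replicate 2 (-1.16). KRT81, a hair keratin, was instead higher in miR3124_mimic, with a log2 difference of 1.39.

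**Figure D2:**
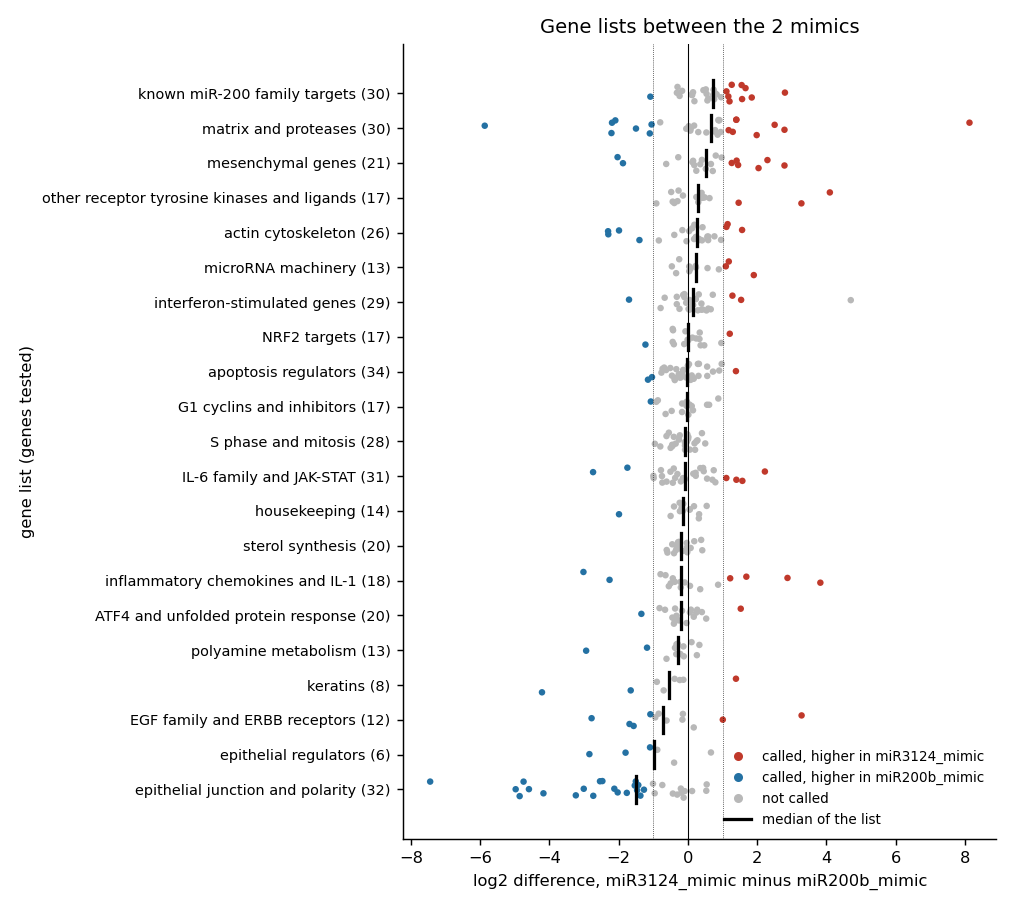
Each row is a gene list and each point a tested member, placed by its log2 difference, miR3124_mimic minus miR200b_mimic (x axis), with called members coloured by direction and the list median as a vertical bar. The epithelial junction and polarity members lie to the left (median -1.49, none called to the right), and the known miR-200 family targets lie mostly to the right (median 0.74).

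Mesenchymal genes did not move as a block. Of 25 genes, 21 were tested, 6 were called higher in miR3124_mimic and 2 higher in miR200b_mimic, and the median log2 difference was 0.52. The share called was 38.1%, beside 12.1% of all genes tested. LOX, a collagen crosslinking enzyme, was at 288.2 and 278.4 CPM in miR3124_mimic, 72.2 and 66.0 CPM in miR200b_mimic and 305.1 and 288.8 CPM in miRcontrol. MMP2, a gelatinase, was at 65.4 and 67.2 CPM in miR3124_mimic, 10.0 and 9.25 CPM in miR200b_mimic and 10.9 and 12.7 CPM in miRcontrol. The LOX difference (log2 2.04, SE 0.05) thus went with a low level in miR200b_mimic, and the MMP2 difference (log2 2.79, SE 0.10) with a high level in miR3124_mimic. FN1, fibronectin, was at 3433 and 3327 CPM against 1443 and 1368 CPM, a log2 difference of 1.27 (SE 0.04), with THY1 (1.45), COL6A1 (1.41) and TAGLN (2.30) in the same direction.

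The exceptions were VIM and SNAI2. VIM, the intermediate filament protein vimentin, was at 826.4 and 797.9 CPM in miR3124_mimic, 2970 and 2989 CPM in miR200b_mimic and 3890 and 3703 CPM in miRcontrol. Vimentin mRNA was thus lowest with the miR-3124-5p mimic, with a log2 difference of -1.88 (SE 0.03). SNAI2, the repressor Slug, was at 11.2 and 10.2 CPM in miR3124_mimic, 44.3 and 43.0 CPM in miR200b_mimic and 23.1 and 23.3 CPM in miRcontrol, a log2 difference of -2.03 (SE 0.09).

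Of 33 genes known as targets of the miR-200 family, 30 were tested. Among these, 9 were called lower in miR200b_mimic than in miR3124_mimic and 1 was called in the other direction. The share called was 33.3%, beside 12.1% of all genes tested, and the median log2 difference was 0.74. The list was drawn up from general knowledge with results of these data already known, and describes rather than tests the mimic. ZEB2 (chr2:144364364-144524583, minus strand) was at 45.9 and 47.1 CPM in miR3124_mimic, 6.95 and 6.44 CPM in miR200b_mimic and 33.7 and 30.8 CPM in miRcontrol, a log2 difference of 2.80 (SE 0.10, adjusted p = 5.37e-28). ZEB1 was at 59.4 and 56.3 CPM in miR3124_mimic, 25.9 and 25.6 CPM in miR200b_mimic and 63.2 and 62.9 CPM in miRcontrol, a log2 difference of 1.17 (SE 0.07). For both repressors the miR200b_mimic libraries were below all others of the 3 groups. SEC23A, a subunit of COPII secretory vesicle coats, had a log2 difference of 1.84 (SE 0.05), QKI, an RNA-binding protein of splicing, 1.55 (SE 0.04), CFL2, a cofilin of actin turnover, 1.57, and RECK, an inhibitor of metalloproteinases, 1.66. ERRFI1, a feedback inhibitor of EGF receptor signalling, was the 1 gene in the other direction, at -1.08.

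Sites for both seeds were then searched in 1 3′UTR per gene, that of its longest coding transcript (GENCODE release 29, GRCh38). An 8mer site was CAGTATTA for miR-200b-3p and CCCGCGAA for miR-3124-5p, a 7mer-m8 site was CAGTATT or CCCGCGA, and a 7mer-A1 site was AGTATTA or CCGCGAA. Only the strand of the transcript was searched, each 8mer contains both 7mers, and a gene was put in the strongest class it held. A 3′UTR was found for 12235 of the genes tested, and 19.5% of them held an 8mer or 7mer-m8 of miR-200b-3p, but 0.621% one of miR-3124-5p. A match is a string of letters and not a measured binding site.

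The median log2 difference of the 12235 genes was -0.02. It was 0.20 for the 649 genes with a miR-200b-3p 8mer, 0.08 for the 1732 genes with a 7mer-m8, 0.03 for the 759 genes with a 7mer-A1 and -0.05 for the 9095 genes with none. Of the genes with an 8mer, 12.5% were called higher in miR3124_mimic and 1.70% higher in miR200b_mimic, beside 7.49% and 4.52% of all genes with a 3′UTR. The median was higher with more 8mer or 7mer-m8 sites, from 0.07 with 1 site (1816 genes) through 0.21 with 2 sites (427 genes) to 0.35 with 3 or more (138 genes). The median length of the 3′UTR rose in the same order, at 2754, 4050 and 6506 bases. Genes with a miR-200b-3p 8mer also had long 3′UTRs poor in G and C (medians of 3226 bases and 36.9%) compared with genes without a site (959 bases and 45.4%). Within 5 bins of 3′UTR length, the median was 0.07 to 0.16 with an 8mer or 7mer-m8 and -0.07 to -0.02 with no site of any class.

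Sites of miR-3124-5p were rare. The median log2 difference was -0.36 for the 18 genes with an 8mer, -0.36 for the 58 genes with a 7mer-m8, -0.71 for the 25 genes with a 7mer-A1 and -0.02 for the 12134 genes with none. Of the 18 genes with an 8mer, 12 had a log2 difference below 0 and 6 above 0, with 4 called higher in miR200b_mimic and 1 higher in miR3124_mimic. The 3′UTRs with such an 8mer had a median length of 2084 bases and 51.5% G and C, beside 1327 bases and 42.3% where no site was found. These class medians rest on few genes, and bins of 3′UTR length held 7 to 24 genes with an 8mer or 7mer-m8, with medians from -1.20 to -0.0450. The part of length and base composition in these differences was not tested for either seed.

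**Figure D3:**
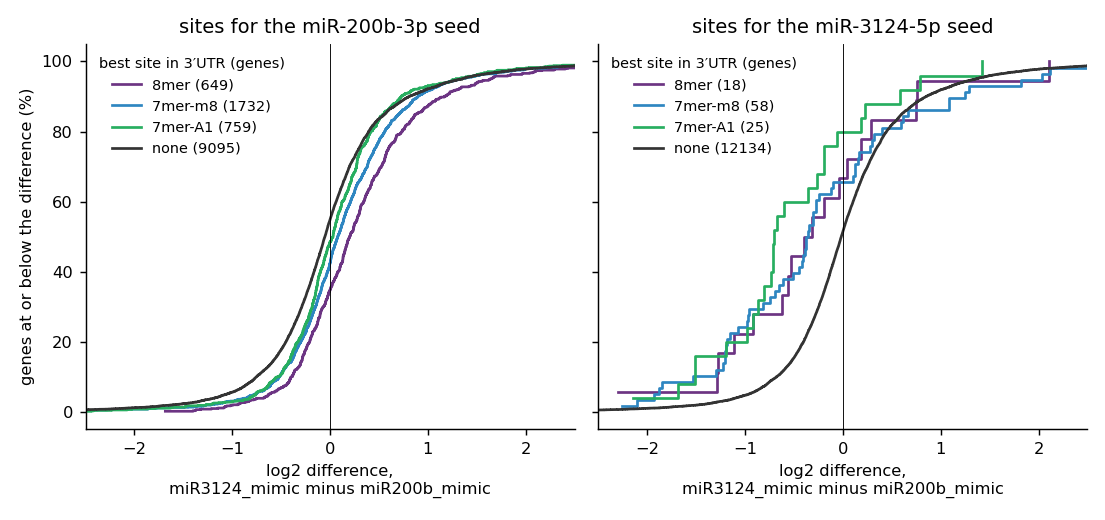
The cumulative share of genes (y axis, %) is drawn against the log2 difference, miR3124_mimic minus miR200b_mimic (x axis), for each class of 3′UTR site of each seed. At their medians, curves of genes with miR-200b-3p sites lie to the right of the curve without sites (0.20 for 8mer and -0.05 for none) and those with miR-3124-5p sites to its left (-0.36 for 8mer and -0.02 for none), and several curves cross at the upper end.

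The 8mer sites of genes that were lower in the mimic carrying the matching seed are shown in their context, as 26 bases of the transcript strand with the 8mer in capitals.
ZEB2: gctcgcactacaatgcatCAGTATTA
ZEB1: ggcattgttttatcttatCAGTATTA
VAT1L: tgccaatcccatgccatgCAGTATTA
OSTM1: cttaattaccccccattgCAGTATTA
ACTN1: tggcatcgatcctccctgCCCGCGAA
IER2: tccatcctgggggaagcgCCCGCGAA
SIPA1L3: ccccggggagcactgcacCCCGCGAA
The 8mers lie in 3′UTR exons at chr2:144388989-144388996 (ZEB2, minus strand), chr10:31527633-31527640 (ZEB1, plus), chr16:77977878-77977885 (VAT1L, plus) and chr6:108044334-108044341 (OSTM1, minus). Those of miR-3124-5p lie at chr14:68874709-68874716 (ACTN1, minus), chr19:13153961-13153968 (IER2, plus) and chr19:38207301-38207308 (SIPA1L3, plus). ZEB2 held 4 such 8mers in its 3′UTR and ZEB1 held 3, of which the first is shown.

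ACTN1, which crosslinks actin filaments as alpha-actinin-1, was at 220.0 and 206.1 CPM in miR3124_mimic, 1047 and 1046 CPM in miR200b_mimic and 1202 and 1189 CPM in miRcontrol. Its miR3124_mimic libraries were far below the other groups, with a log2 difference of -2.30 (SE 0.04, adjusted p = 2.35e-40). SIPA1L3, a GTPase-activating protein for Rap, was at 67.1 and 59.1 CPM against 128.3 and 142.4 CPM, a log2 difference of -1.11 (SE 0.06). IER2, an immediate early gene product, was at 35.8 and 34.2 CPM against 85.0 and 84.5 CPM, a log2 difference of -1.28 (SE 0.06).

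OSTM1, a partner of the lysosomal chloride transporter CLCN7, was at 149.4 and 152.6 CPM in miR3124_mimic, 22.9 and 20.5 CPM in miR200b_mimic and 109.1 and 106.7 CPM in miRcontrol. The miR200b_mimic libraries were the low ones, with a log2 difference of 2.81 (SE 0.06). SH3PXD2A, a podosome scaffold, was at 38.1 and 42.8 CPM in miR3124_mimic and 4.33 and 5.52 CPM in miR200b_mimic, with 10.4 and 9.66 CPM in miRcontrol between them, and a log2 difference of 3.02 (SE 0.12). B4GAT1, a glucuronyltransferase of dystroglycan, and ST3GAL5, the GM3 ganglioside synthase, had log2 differences of 2.62 (SE 0.10) and 2.52 (SE 0.11). Against miRcontrol, B4GAT1 had log2 fold changes of 0.75 in miR3124_mimic and -1.875 in miR200b_mimic. For ST3GAL5 these were 1.64 and -0.88, so its rise in miR3124_mimic was the larger part.

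Genes with opposite responses were those that departed from miRcontrol by at least 1.5-fold at an adjusted p under 0.05 with each mimic, in opposite directions, and were called between the mimics. There were 209 such genes (1.4% of those tested), of which 159 were up with the miR-3124-5p mimic and down with the miR-200b-3p mimic, and 50 the reverse. At a departure of at least 2-fold each way, 75 genes remained, 62 and 13 in the respective directions. The median level of the genes was 7.54 and 7.55 CPM, and 68 and 20 of them reached 10 CPM. The number was 166 with the DESeq2 Wald test, 184 to 199 without 1 mimic library and 171 or 174 without 1 miRcontrol library. Since every opposite gene had to be called, the difference between the mimics within this group is a description.

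Of the opposite genes up with the miR-3124-5p mimic, 147 had a 3′UTR and 38 of these (25.9%) held an 8mer or 7mer-m8 of miR-200b-3p. Of those up with the miR-200b-3p mimic, 6 of 41 (14.6%) did. The share among all genes with a 3′UTR was 19.5%, so most opposite genes held no such site. For miR-3124-5p the counts were 2 of 147 (1.36%) and 3 of 41 (7.32%), beside 0.621% of all genes with a 3′UTR, so both shares rest on few genes. IER2, whose 8mer is shown above, was 1 of the 3, with a log2 fold change against miRcontrol of -0.68 in miR3124_mimic and 0.60 in miR200b_mimic, close to the limit of 1.5-fold.

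**Figure D4:**
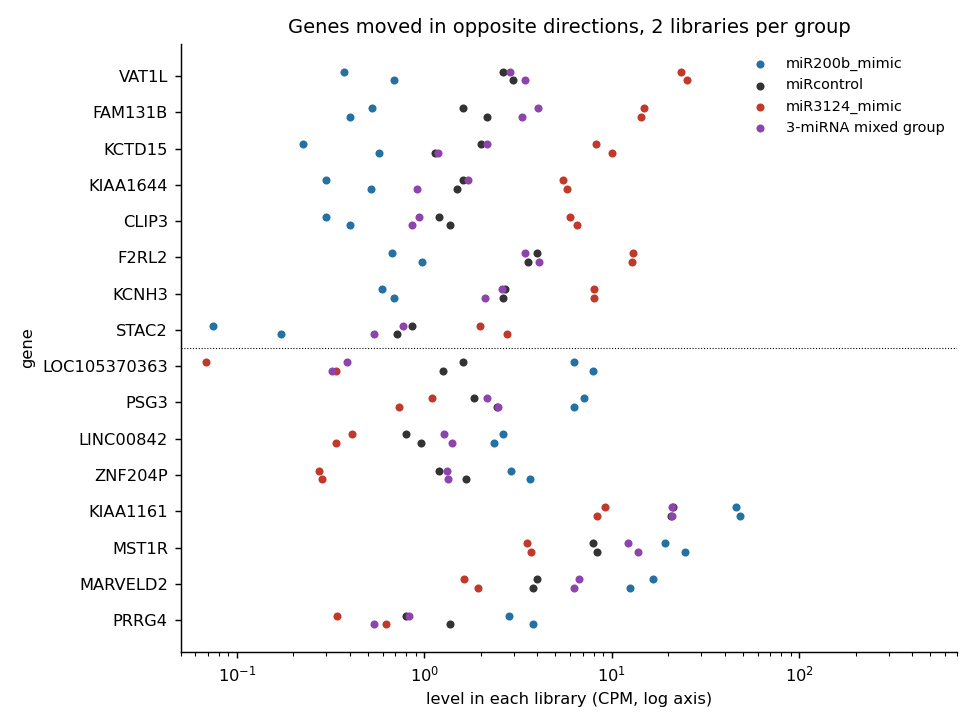
The level in each of the 2 libraries of 4 groups (x axis, CPM on a log scale) is plotted for the 8 opposite genes up with the miR-3124-5p mimic (above the dotted line) and the 8 up with the miR-200b-3p mimic (below it) that departed most from miRcontrol in both directions among genes of at least 1 CPM; each point is 1 library, coloured by group. The rule for opposite genes places the miRcontrol level between the mimics. MARVELD2, for example, was at 1.64 and 1.92 CPM in miR3124_mimic, 4.003 and 3.82 CPM in miRcontrol and 16.6 and 12.6 CPM in miR200b_mimic.

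VAT1L and FAM131B, described above, had the largest departures in both directions among genes of at least 1 CPM up with the miR-3124-5p mimic. VAT1L had a log2 fold change against miRcontrol of 3.11 in miR3124_mimic and -2.33 in miR200b_mimic, and FAM131B 2.96 and -2.02. KCTD15, a BTB-domain protein, was at 8.26 and 10.1 CPM in miR3124_mimic, 2.001 and 1.13 CPM in miRcontrol and 0.224 and 0.575 CPM in miR200b_mimic. Its log2 difference between the mimics was 4.42 (SE 0.34), or 5.31 without miR200b_mimic replicate 2. F2RL2, the thrombin receptor PAR3, was at 12.96 and 12.9 CPM, 4.003 and 3.58 CPM and 0.672 and 0.977 CPM in the same order of groups. KCNH3, a voltage-gated potassium channel, was at 8.05 and 8.03 CPM, 2.69 and 2.62 CPM and 0.598 and 0.690 CPM. The rule places the miRcontrol level of these genes between the mimics, and the libraries of the 3 groups did not overlap. CLIP3, a microtubule-associated linker protein, was at 6.004 and 6.56 CPM in miR3124_mimic and 0.299 and 0.402 CPM in miR200b_mimic, a log2 difference of 4.11 (SE 0.36), and KIAA1644 had one of 3.72 (SE 0.37). STAC2, an adaptor of calcium channels, had a count ratio between the mimics of 18.6 (6.96 to 69.8), and its fitted log2 difference of 4.13 became 4.86 without miR200b_mimic replicate 2.

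Growth factor receptors and ligands were among the opposite genes up with the miR-3124-5p mimic. KIT, the stem cell factor receptor, was at 19.4 and 17.6 CPM in miR3124_mimic, 1.195 and 0.977 CPM in miR200b_mimic and 2.06 and 3.22 CPM in miRcontrol, a log2 difference of 4.10 (SE 0.21). PDGFRB, a receptor for platelet-derived growth factor, was at 30.9 and 28.0 CPM, 3.14 and 2.93 CPM and 7.61 and 7.63 CPM in the same order, a log2 difference of 3.28 (SE 0.14). NRG2, a neuregulin ligand of ERBB receptors, was at 7.71 and 7.57 CPM, 0.598 and 0.920 CPM and 1.94 and 2.44 CPM. In all 3 genes the control lay between the mimics, as the rule for opposite genes requires. Of 17 other receptor tyrosine kinases and ligands tested, 3 (17.65%) were called, beside 12.1% of all genes tested. All 3 were higher in miR3124_mimic, and the median log2 difference of the 17 was 0.30. The receptor tyrosine kinase MST1R, described below, was not on this list and was called in the other direction (-2.605). Among 12 EGF family members tested, 50% were called, 2 higher in miR3124_mimic and 4 higher in miR200b_mimic. The latter included the ligands AREG (-2.78) and EREG (-1.69). The calls of the ligand EPGN and the adaptor GRB7 were lost without miR3124_mimic replicate 2 (0.93 and -1.25), and that of EPGN also without miR200b_mimic replicate 1 (0.87), with TMM scaling, with DESeq2 and without a low-count filter.

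Opposite genes up with the miR-200b-3p mimic included a member of the junction and polarity list. MARVELD2, a protein of tricellular junctions, was at 1.64 and 1.92 CPM in miR3124_mimic, 16.6 and 12.6 CPM in miR200b_mimic and 4.003 and 3.82 CPM in miRcontrol, a log2 difference of -3.01 (SE 0.19). MST1R, the receptor tyrosine kinase RON, was at 3.55 and 3.73 CPM, 19.4 and 24.7 CPM and 7.95 and 8.35 CPM in the same order, a log2 difference of -2.61 (SE 0.15). KIAA1161 was at 9.21 and 8.31 CPM, 46.3 and 48.3 CPM and 21.2 and 20.8 CPM, a log2 difference of -2.44 (SE 0.10). The low values belonged to miR3124_mimic and the high ones to miR200b_mimic in each case, as the rule for this direction requires. LOC105370363 was at 0.0682 and 0.339 CPM in miR3124_mimic, 6.28 and 7.99 CPM in miR200b_mimic and 1.60 and 1.25 CPM in miRcontrol. Its log2 difference of -5.01 became -4.38 or -6.57 without miR3124_mimic replicate 1 or 2. PSG3, a pregnancy-specific glycoprotein whose family has near-identical copies and so may share reads, had a log2 difference of -2.88 (SE 0.29). The pseudogene ZNF204P (-3.54), the noncoding LINC00842 (-2.71) and PRRG4 (-2.75) completed the 8 genes of at least 1 CPM with the largest departures in this direction.

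Inflammatory genes differed in both directions. Of 18 chemokine and IL-1 genes tested, 4 were called higher in miR3124_mimic and 2 higher in miR200b_mimic. The share called was 33.3%, beside 12.1% of all genes tested. The median log2 difference was -0.21, or 0.0028 without miR200b_mimic replicate 2. CCL2, a monocyte chemokine, was at 13.6 and 15.5 CPM in miR3124_mimic, 2.17 and 1.84 CPM in miR200b_mimic and 4.12 and 4.77 CPM in miRcontrol, a log2 difference of 2.88 (SE 0.18). RELB, a subunit of non-canonical NF-kappa B, went the other way, at 6.34 and 6.39 CPM, 27.6 and 33.1 CPM and 13.9 and 12.1 CPM in the same order, with a log2 difference of -2.26 (SE 0.12). Both were opposite genes, as was PTGS2, the inducible cyclooxygenase, at low levels (log2 difference -3.02, SE 0.57). CXCL8, a neutrophil chemokine, was at 29.5 and 28.7 CPM against 8.74 and 9.25 CPM, a log2 difference of 1.69 (SE 0.12). Of 31 IL-6 family and JAK-STAT genes tested, 19.35% were called, beside the same 12.1% of all genes. There were 4 higher in miR3124_mimic and 2 higher in miR200b_mimic, with a list median of -0.10. IL11, a cytokine of the IL-6 family, was at 165.7 and 160.9 CPM against 61.0 and 62.5 CPM, a log2 difference of 1.40 (SE 0.05), and its receptor chain IL11RA had one of 2.22 (SE 0.34). The calls of PRLR (1.44), STAT5A (0.88), CXCL5 (0.94) and SOCS1 (-1.75) were lost without miR200b_mimic replicate 1, and that of SOCS1 also without replicate 2 of either mimic (-1.12 for miR3124_mimic and -1.75 for miR200b_mimic). Without miR3124_mimic replicate 1 the value of SOCS1 was -2.65, and SOCS1 was not called by DESeq2. The neutrophil chemokine CXCL6 had at most 2 counts in the miR200b_mimic libraries, and its fitted difference was 3.06 or 7.11 without miR200b_mimic replicate 1 or 2.

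Matrix and adhesion genes divided by subunit. Of 30 matrix and protease genes tested, 8 were called higher in miR3124_mimic and 7 higher in miR200b_mimic, with a median log2 difference of 0.66. The share called was 50%, beside 12.1% of all genes tested. LAMB3, a chain of the basement membrane laminin-332, was at 102.4 and 94.7 CPM in miR3124_mimic and 402.5 and 437.4 CPM in miR200b_mimic, a log2 difference of -2.10 (SE 0.05). ITGB4, the integrin chain of hemidesmosomes that binds this laminin, was called in the same direction (-1.50). ITGB3, the beta chain of the vitronectin receptor, was instead at 105.3 and 106.6 CPM in miR3124_mimic and 25.8 and 27.5 CPM in miR200b_mimic, a log2 difference of 1.99 (SE 0.07). COL7A1, the anchoring fibril collagen, was an opposite gene up with the miR-3124-5p mimic, with a log2 difference of 2.505 (SE 0.14).

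For ACTB, EZR and SRM, the miR3124_mimic libraries were the lowest of the 3 groups. ACTB, cytoplasmic beta-actin, was at 1684 and 1685 CPM in miR3124_mimic, 6685 and 6692 CPM in miR200b_mimic and 7162 and 7124 CPM in miRcontrol, a log2 difference of -1.99 (SE 0.03, adjusted p = 8.66e-42). EZR, the membrane-actin linker ezrin, was at 258.8 and 252.6 CPM, 1283 and 1244 CPM and 879.4 and 887.3 CPM in the same order, a log2 difference of -2.31 (SE 0.04). SRM, spermidine synthase of the polyamine pathway, was at 14.9 and 16.6 CPM, 118.3 and 123.5 CPM and 124.7 and 122.4 CPM, a log2 difference of -2.94 (SE 0.06). In ACTB and SRM the miR200b_mimic libraries were near the control, with log2 fold changes against it of -0.09 and -0.03. Of 26 actin cytoskeleton genes tested, 26.9% were called, beside 12.1% of all genes tested. There were 3 higher in miR3124_mimic and 4 higher in miR200b_mimic, the latter being ACTB, ACTN1, EZR and ZYX, a focal adhesion protein. Of 13 polyamine genes, SRM and SAT1, which acetylates polyamines, were called, both higher in miR200b_mimic, a share of 15.4% beside 12.1% of all genes tested.

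Genes of the silencing machinery were also compared. Of 13 genes tested, 3 (23.1%) were called, beside 12.1% of all genes tested. All 3 were higher in miR3124_mimic, and the median log2 difference of the 13 was 0.22. TNRC6A, the GW182 scaffold that joins Argonaute to deadenylases, was at 315.1 and 337.6 CPM in miR3124_mimic, 91.4 and 83.8 CPM in miR200b_mimic and 152.9 and 151.3 CPM in miRcontrol, and was an opposite gene with a log2 difference of 1.90 (SE 0.05). AGO4, an Argonaute, was at 56.8 and 56.2 CPM against 25.6 and 24.4 CPM, a log2 difference of 1.18. TNRC6C, a related scaffold, had a log2 difference of 1.096 and lost its call without miR3124_mimic replicate 1 (0.69) or miR200b_mimic replicate 2 (0.73). It was also not called by DESeq2.

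The 3-miRNA mixed group received both mimics together with the miR-92b inhibitor, so its level of each opposite gene can be placed between the single mimics. On a log2 scale with 0.1 CPM added, where 0 is the mean of miR200b_mimic and 1 the mean of miR3124_mimic, the median position of the 209 opposite genes was 0.446. The mixture lay between the mimics for 201 genes, below 0 for 7 and above 1 for 1, and was nearer to miR200b_mimic for 137. The rule sets the mimics on either side of miRcontrol, so any group near miRcontrol would also lie between them. The number between is therefore not read as an effect of combining the mimics. The miRcontrol libraries placed in the same way had a median of 0.483 and were nearer to miR200b_mimic for 120, where lying between the mimics is fixed by the rule. The medians for genes up with the miR-3124-5p mimic and up with the miR-200b-3p mimic were 0.448 and 0.397. Without 1 or the other mixture library the median of all 209 was 0.438 or 0.456.

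Individual genes were placed differently. KRT19 was at 2.49 and 2.74 CPM in the mixture, below the 8.46 and 7.93 CPM of miRcontrol. RELB was at 24.1 and 24.5 CPM in the mixture, above the 13.9 and 12.1 CPM of miRcontrol and toward miR200b_mimic. TAGLN, an actin-binding protein of contractile cells, was at 55.3 and 55.2 CPM in the mixture, close to 57.5 and 54.3 CPM in miRcontrol and between 150.8 and 153.7 CPM in miR3124_mimic and 32.1 and 30.1 CPM in miR200b_mimic. The mixture libraries of these genes overlapped neither mimic. With the inhibitor present and the doses in the mixture not given, the contribution of each component cannot be told apart.

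**Figure D5:**
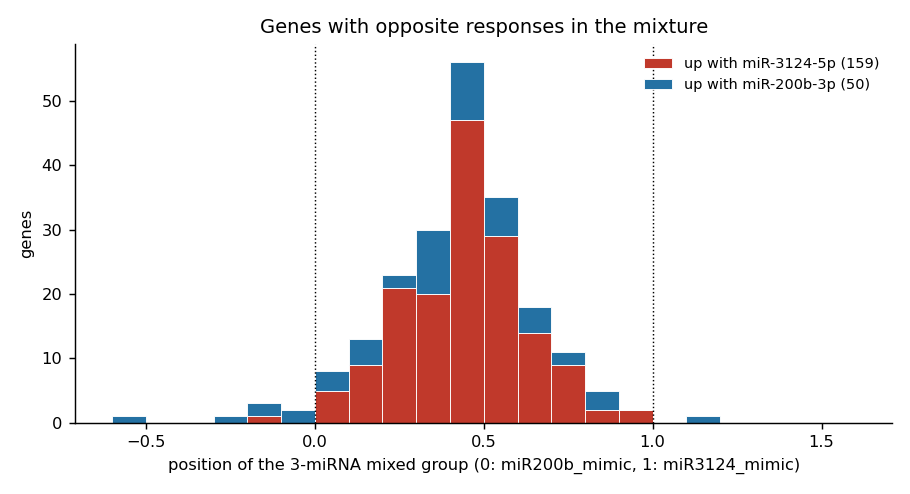
The histogram gives the number of opposite genes (y axis) by the position of the 3-miRNA mixed group between the mimics (x axis, 0 for the miR200b_mimic mean and 1 for the miR3124_mimic mean, log2 scale), with colours for the direction of the response. The median is 0.446 and 201 of 209 genes lie between 0 and 1, where the rule for opposite genes also places miRcontrol.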

How the data were processed

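RNA-seq counts of 10 libraries of BEAS2B cells, 2 in each of 5 groups, were analysed. Per the methods of the study, the authors sequenced 100-base paired-end reads, trimmed adapters and low-quality bases and mapped reads with TopHat, and the submitters' processing notes give GRCh38 as the build. The counting tool and annotation are not given in the sources used here. The authors deposited raw read counts per gene symbol, in files of 58173 rows. Rows with the same symbol were summed (5771 repeated rows), leaving 52402 symbols. The files do not pair symbols with strand, so overlapping and antisense genes are uncertain.

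Counts were filtered with filterByExpr, scaled by RLE factors (0.985 to 1.016) and fitted over all 10 libraries by the quasi-likelihood test of edgeR (4.0.16, with limma 3.58.1 and R 4.3.3). The common dispersion was 0.000752, which is a small spread between replicates. The SE of a log2 difference was computed as its size divided by the square root of F. Genes were called at an adjusted p under 0.05 over all 14884 genes tested and a fold of at least 2. The study used an unadjusted p, which was tried as an alternative. On simulated counts of this comparison (14535 genes), the test recovered 97 of 100 genes changed 2.5-fold and 100 of 100 changed 4-fold, with 4 unchanged genes called. The simulation used the fitted dispersions, and the changed genes were drawn only from genes above a minimum mean count. These rates therefore do not cover called genes with few counts. Replicates of a mimic differed by more than counting noise (chi-square over degrees of freedom of 1.76 for miR3124_mimic and 2.20 for miR200b_mimic).

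The genes described were those with the largest differences (8 in each direction) among called genes of at least 1 CPM without overlap, the opposite genes of at least 1 CPM with the largest smaller departure from miRcontrol (8 each way), members of fixed lists, and up to 6 called genes per seed with an 8mer. Members and lists were chosen with earlier results of these data known. A called gene with both libraries of a mimic at 0 was compared with a floor of 3 counts. For genes with 1 to 3 counts at most per library in a group, the ratio of summed counts is given with its exact 95% interval. The 3′UTRs came from GENCODE release 29, which matched 18460 symbols. Mature miRNAs came from RefSeq. LOC105370363, KIAA1644 and KIAA1161 are named without coordinates. Some genes that met these rules are not reported here.

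Replicate numbers are shared across groups. The differences between replicates correlated by 0.0144 between the mimic groups and by -0.0621 to 0.0612 over all pairs of groups (10418 genes). No shared deviation of same-numbered libraries was thus seen, and the fit had no block. The labels do not say whether same-numbered libraries were handled together. Alternatives were TMM scaling, library totals, DESeq2 (1.42.0), a fit of only the groups compared, other low-count filters, a replicate block, other call criteria, separate repeated rows, 3′UTRs of 200 to 5000 bases, and leaving out each library of the mimics, miRcontrol and the mixture in turn (single genes and lists: of the mimics only). No sample was left out of the main fit.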

Additional observations from a re-analysis of the deposited data

How the results depend on the processing

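The number of genes called (1806 in all) was 1140 when every library had to hold at least 10 counts, and 8597 with no fold minimum. The split also moved there, with 48.3% of the calls higher in miR3124_mimic against 63.0% at 2-fold. The number of opposite genes (209) was 1584 with no fold minimum and 166 with DESeq2, which called 1545 genes in all. Without 1 library of the mimics, the control or the mixture, the counts ran from 1711 to 1894 and from 171 to 208. The replicate block gave 1805 called genes and 207 opposite genes and lost no call of the 127 genes named, and same-numbered libraries did not deviate together. Among the 1738 values of those genes under alternatives, 27 lost the threshold and 0 changed direction, and 114 genes kept direction and threshold wherever they could be tested. 12 genes lost the call without 1 library. In the seed classes, with 3′UTRs of 200 to 5000 bases, the medians were -0.46 for miR-3124-5p 8mers, -0.0236 for none, 0.0614 for miR-200b-3p 7mer-m8, 0.0049 for 7mer-A1 and -0.0556 for none. With TMM scaling, genes without a site had -0.0293 (miR-3124-5p) and -0.0650 (miR-200b-3p). Without 1 mimic library, the miR-3124-5p medians ran from -0.49 to -0.32 (8mer), from -0.39 to -0.30 (7mer-m8), from -0.70 to -0.62 (7mer-A1) and from -0.0213 to -0.0154 (none), and the miR-200b-3p medians from 0.18 to 0.21, from 0.0636 to 0.0908, from 0.0022 to 0.0271 and from -0.0584 to -0.0488 in the same order. Of 126 list medians, 35 moved by more than the spread between replicates, by at most 0.23. With library totals the medians were -0.50 for keratins (-0.55 with TMM), 0.34 for other receptor tyrosine kinases, 0.0087 for apoptosis regulators (a change of sign), -0.0017 for G1 cyclins, -0.0459 for S phase and mitosis, -0.18 for ATF4 and unfolded protein response, 0.31 for the actin cytoskeleton and -0.10 for housekeeping genes. Without 1 mimic library, the medians ran from -1.58 to -1.45 for epithelial junction, from -1.22 to -0.80 for epithelial regulators, from 0.42 to 0.68 for mesenchymal genes, from 0.66 to 0.76 for miR-200 targets, from -0.5525 to -0.5455 for keratins, from 0.23 to 0.30 for other receptor tyrosine kinases, from -0.32 to 0.0028 for chemokines (a change of sign without miR200b_mimic replicate 2), from 0.10 to 0.28 for interferon-stimulated genes and from 0.0184 to 0.14 for NRF2 targets. For G1 cyclins they ran from -0.10 to -0.0455, for S phase and mitosis from -0.15 to -0.0579, for sterol synthesis from -0.23 to -0.13, for ATF4 and unfolded protein response from -0.23 to -0.18, for matrix and proteases from 0.60 to 0.66, for the actin cytoskeleton from 0.24 to 0.28, for microRNA machinery from 0.15 to 0.26 and for housekeeping genes from -0.16 to -0.12. The causes of these shifts were not tested. With 2 libraries a group, a library left out leaves a group of 1, assumed to vary like the others, and the low-count filter then keeps more genes. Of the called genes, 106 in miR200b_mimic and 32 in miR3124_mimic had at most 3 counts per library, which limits the precision of their differences.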

Other observations

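Housekeeping and growth-related lists differed little between the mimics. Of 28 S phase and mitosis genes tested, none was called (median log2 difference -0.08), beside 12.1% of all genes tested. None of 20 sterol synthesis genes was called either (median -0.19). At a smaller fold, 18 and 12 genes of these lists passed the adjusted p, beside 57.8% of all genes tested at any fold. Against miRcontrol, the S phase and mitosis median was -0.55 in miR3124_mimic and -0.32 in miR200b_mimic. Of 17 G1 cyclins and inhibitors, CCND1, which encodes cyclin D1, was the only call (5.88%, beside 12.1% of all genes tested). It was at 570.8 and 539.3 CPM in miR3124_mimic and 1180 and 1151 CPM in miR200b_mimic (log2 difference -1.07). Among 14 housekeeping genes, ACTB was the only call (7.14%, beside the same 12.1% of all genes), and the median of the list was -0.14.

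In the interferon, NRF2, ATF4 and apoptosis lists, 8.82% to 11.8% of the genes tested were called, beside 12.1% of all genes, and the members called are given as values. Of 29 interferon-stimulated genes, IFIT1 (1.29) and MX1 (1.54) were called higher in miR3124_mimic and IFIH1, a sensor of double-stranded RNA, higher in miR200b_mimic (-1.70), with a median of 0.15, or 0.13 with MX2, at 0 in both miR200b_mimic libraries, set at its floor. MX1 was not called by DESeq2. Of 17 NRF2 targets, HMOX1, heme oxygenase-1, was higher in miR3124_mimic (1.21) and FTL, ferritin light chain, higher in miR200b_mimic (-1.23), with a median of 0.01. Of 20 ATF4 and unfolded protein response genes, PHGDH, of serine synthesis, was higher in miR3124_mimic (1.53) and TRIB3, a pseudokinase induced by stress, higher in miR200b_mimic (-1.34), with a median of -0.21. Of 34 apoptosis regulators, BMF (1.39) was called higher in miR3124_mimic and BAD (-1.15) and BIK (-1.04) higher in miR200b_mimic, with a median of -0.03. BIK lost the call without miR3124_mimic replicate 2 (-0.65) or miR200b_mimic replicate 1 (-0.93), and was not called by DESeq2.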
